A study of Mus musculus with 12 samples.

Results

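A set of 9 transcription factors that govern the lineage of epithelial cells was followed across 3 cultures of mouse prostate stem cells. They are 2 factors of basal cells, Trp63 and Snai2, and 7 factors of epithelial differentiation, Grhl1, Grhl2, Grhl3, Ovol1, Elf3, Elf5 and Ehf. They were found by gene symbol: 16 of the 45135 probes of the Illumina mouse array were annotated to them, and each of the 9 genes had at least 1. Of these probes 10 passed the detection filter, so 7 of the 9 genes were among the 10112 genes tested, and Elf5 and Ehf were not.

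All cells were prostate stem cells of C57Bl/6 mice. The cultures were spheroid mouse 1, in which cells grow as balls, and adherent mouse 2 and adherent mouse 1, in which they grow as a layer. Each had 3 replicate arrays and 1 array of a pool, 12 arrays in all. No genetic change or treatment is given in the labels, and neither is the age of the mice. Only 1 spheroid culture was sampled. Whether the replicates are separate cultures is not stated, so a p-value here reflects the spread among arrays, which may be purely technical. The adherent mouse 2 arrays are called 1, a and b, because the deposited table gives 1 name to both of the last.

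Basal cells of the prostate and of other layered epithelia depend on p63, the product of Trp63, and Snai2 (Slug) is a zinc finger repressor that is known from basal cells and from the epithelial to mesenchymal transition. Grainyhead-like factors (Grhl1 to Grhl3) switch on junction and barrier genes through a shared DNA motif. Ovol1 is a zinc finger factor of keratinocyte growth arrest and differentiation, and Elf3, Elf5 and Ehf form the epithelium-specific branch of the Ets family.

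Between 43.1% and 49.1% of probes were detected on each array. The signal at which the brightest 10% of probes begin was 3.09 to 3.24 times background in spheroid replicates, against 3.82 to 4.72 times in adherent ones, and its part in the results was not tested. Across genes, log2 signals correlated at 0.843 to 0.860 between spheroid and adherent arrays and at 0.971 to 0.981 between the adherent cultures. Adherent mouse 2 replicate 1 stood apart from arrays a and b: the lowest correlation within that culture was 0.975, against 0.993 within adherent mouse 1. The label was checked with 8 basal markers, all of which passed the filter. Their mean log2 signal was 11.36 to 11.42 on the spheroid arrays, 10.99 to 11.38 in adherent mouse 2 and 11.03 to 11.28 in adherent mouse 1, and Krt5 and Krt14, the keratins of basal cells, were detected on all 9 replicate arrays. Of the 8, 1 rose in spheroids, the keratin Krt15 by 2.73, and 1 fell, Dst at -1.25. Of the 10 luminal markers 5 passed, of which 2 rose in spheroids and 1 fell. By the same rule, given below, 13.1% of all genes tested rose and 13.4% fell. Krt18 fell, at -1.42 on the log2 scale. Krt8 lay at -0.96, short of 2-fold. With only adherent mouse 2 as the reference it reached -1.07, which made 2 luminal markers higher and 2 lower. Krt19 rose, by 3.82 against adherent mouse 2 and by 7.75 against adherent mouse 1, where it was detected on 1 of 3 arrays, and it differed by 3.93 between the adherent cultures. Hoxb13, a prostate homeobox factor, was detected on none of these arrays. Pbsn and Tgm4, which encode secreted prostate proteins, were detected on 2 and 1 of them.

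In spheroids 4 of the 5 tested differentiation factors rose and 1 of the 2 basal factors fell, relative to the average of both adherent cultures. A gene was called when limma's adjusted p, Benjamini-Hochberg over all 10112 genes, was under 0.05 and the fold was at least 2. By this rule 13.1% of all tested genes were called higher and 13.4% lower, 26.5% in either direction. Elf3, Grhl1, Grhl3 and Ovol1 were called higher and Snai2 lower, while Grhl2 and Trp63 were not called. The median log2 difference was 2.18 over the 5 differentiation factors and -1.06 over the 2 basal factors, beside -0.06 over all genes tested. The same 4 factors were called higher and Snai2 lower when spheroids were set against adherent mouse 2 alone, for which 26.8% of genes were called, and against adherent mouse 1 alone, for which 27.6% were. These comparisons share the spheroid arrays. Only the comparison with adherent mouse 1 lies within 1 mouse. Against adherent mouse 2, culture form and mouse cannot be told apart. In bulk RNA, fewer cells of a type and less RNA per cell cannot be told apart.

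**Figure D1:**
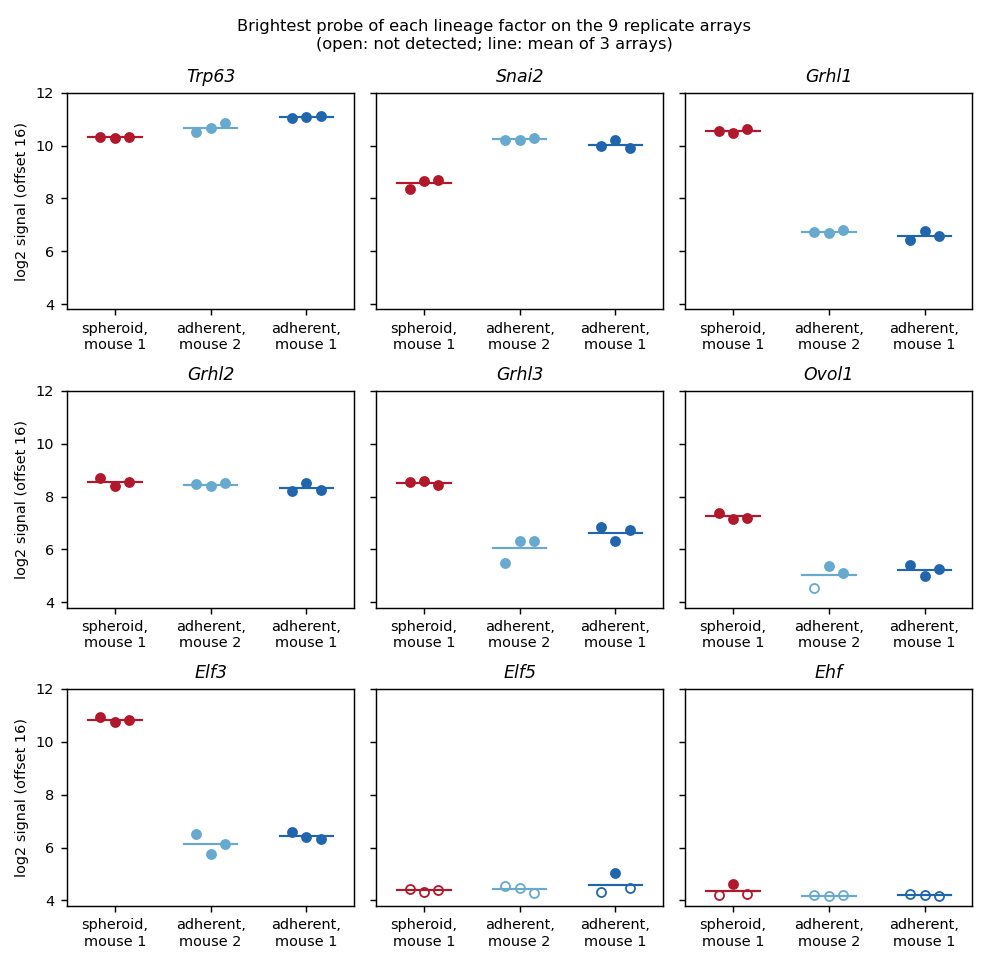
Log2 signal (offset 16) of the brightest probe of each factor on the 9 replicate arrays, in the order spheroid mouse 1, adherent mouse 2 and adherent mouse 1. Points are arrays, open points were not detected and lines are means of 3 arrays. The spheroid arrays lie above all adherent arrays for Grhl1, Grhl3, Ovol1 and Elf3 and below them for Trp63 and Snai2.

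The spheroid arrays did not overlap with any adherent array for 6 of the 7 tested factors, all but Grhl2. Over all genes tested, 53.6% had no such overlap.

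Trp63 was measured by a bright probe on its RefSeq transcript. Its log2 signal was 10.33, 10.29 and 10.33 on the spheroid arrays, against 10.50, 10.65 and 10.87 on the adherent mouse 2 arrays 1, a and b and 11.04, 11.09 and 11.11 on the adherent mouse 1 arrays. In deposited intensity these were 1045, 1083 and 1206 in spheroids, 1646, 2236 and 2393 in adherent mouse 2 and 2165, 2371 and 2342 in adherent mouse 1, all far above a background of 124 to 143. Every spheroid array was therefore below every adherent one, and the nearest pair, the highest spheroid array and adherent mouse 2 replicate 1, lay close together. The log2 difference from both adherent cultures was -0.56 (SE 0.08, limma adjusted p = 4.353e-05), a 1.48-fold lower signal that did not reach the 2-fold threshold. It was -0.36 against adherent mouse 2 (adjusted p = 0.005252) and -0.77 against adherent mouse 1 (adjusted p = 1.082e-05). The size depends on the scaling: with median scaling in place of quantile normalization, which moved the median of all genes to -0.35, Trp63 was at -1.06 and was called lower. A second Trp63 probe, designed on another cDNA, was detected on 0 of the 9 arrays.

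Snai2 signal fell in spheroids. Its log2 signal was 8.36, 8.67 and 8.70 on the spheroid arrays, against 10.22, 10.21 and 10.29 in adherent mouse 2 and 9.97, 10.21 and 9.92 in adherent mouse 1. The spheroid arrays were at least 1 log2 unit under every adherent array. The difference was -1.56 (SE 0.10, limma adjusted p = 1.17e-08), 2.96-fold lower than in both adherent cultures. It was -1.67 against adherent mouse 2 and -1.46 against adherent mouse 1. Snai2 had 1 probe.

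Among the grainyhead-like factors, Grhl1 and Grhl3 rose and Grhl2 did not pass the test. Grhl1, a regulator of desmosomal cadherins in skin, had log2 signals of 10.56, 10.48 and 10.63 in spheroids, against 6.72, 6.68 and 6.82 in adherent mouse 2 and 6.44, 6.77 and 6.57 in adherent mouse 1. The 3 spheroid arrays were bright and the 6 adherent arrays were detected but near the background, at 1.54 to 1.89 times it. The difference was 3.89 (SE 0.11, limma adjusted p = 4.2e-12), or 14.8-fold.

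Grhl2, which maintains epithelial junctions, lay at 8.72, 8.39 and 8.55 in spheroids, 8.46, 8.39 and 8.51 in adherent mouse 2 and 8.22, 8.53 and 8.26 in adherent mouse 1. The groups overlapped. The difference was 0.16 (SE 0.11, limma adjusted p = 0.2237), with a 95% confidence interval of -0.08 to 0.40. Under median scaling it turned to -0.34, close to the median of all genes in that setting. A second Grhl2 probe was detected on 1 of 9 arrays.

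Grhl3, a factor of epidermal barrier formation, had 2 passing probes. The brighter read 8.56, 8.58 and 8.43 on the spheroid arrays, against 5.48, 6.31 and 6.34 in adherent mouse 2 and 6.84, 6.32 and 6.74 in adherent mouse 1. All spheroid arrays were higher, and the lowest array was adherent mouse 2 replicate 1. The difference was 2.18 (SE 0.19, limma adjusted p = 3.057e-07), or 4.54-fold. The second probe gave 2.49 (SE 0.20), or 5.61-fold, when every passing probe was fitted as its own feature.

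The 95% intervals of the spheroid difference did not overlap among the 3 grainyhead-like factors: 3.66 to 4.12 for Grhl1, 1.77 to 2.60 for Grhl3 and -0.08 to 0.40 for Grhl2. The differences between genes were not tested.

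Ovol1 was dim on every array. It had log2 signals of 7.37, 7.17 and 7.20 in spheroids, against 4.56, 5.38 and 5.11 in adherent mouse 2 and 5.41, 5.0 and 5.27 in adherent mouse 1. In deposited intensity the spheroid arrays read 1.74 to 1.84 times their background. The adherent arrays read 1.05 to 1.24 times theirs, and adherent mouse 2 replicate 1 did not pass the detection threshold. The difference was 2.12 (SE 0.19, limma adjusted p = 3.212e-07), or 4.36-fold. So close to the background its size rests on the background correction: without it the difference was 0.81, and in the authors' normalized values 0.95, both under the 2-fold threshold.

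Elf3, by its brightest probe, showed the largest difference of the 7 tested factors. This Ets factor, known from intestinal and other differentiating epithelia, had log2 signals of 10.95, 10.77 and 10.81 in spheroids, against 6.53, 5.74 and 6.15 in adherent mouse 2 and 6.59, 6.41 and 6.31 in adherent mouse 1. In deposited intensity its brightest probe read 1567, 1480 and 1653 in spheroids, 206, 194 and 213 in adherent mouse 2 and 204, 204 and 202 in adherent mouse 1. The adherent arrays were detected but dim, and all spheroid arrays were far above them. The difference was 4.56 (SE 0.15, limma adjusted p = 2.326e-11), or 23.5-fold. It was 4.70 (26.1-fold) against adherent mouse 2 and 4.41 (21.2-fold) against adherent mouse 1.

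Elf3 was also read by 2 dimmer probes, which gave 3.87 (SE 0.20) and 2.80 (SE 0.17), or 14.6-fold and 6.97-fold. Both values lay under the 3.89 of Grhl1. All 3 probes were called higher in spheroids. Their fold sizes differed, and the dimmest probe gave the smallest.

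Elf5 and Ehf, the other epithelium-specific Ets factors, were at background in all 3 cultures. Elf5, known from mammary alveolar cells, had 3 probes, detected on 1, 1 and 2 of the 9 arrays, at 0.80 to 1.13 times the background. Ehf had 1 probe, detected on 1 spheroid array, at 0.906 to 1.05 times the background over the 9 arrays. Neither was above background on all arrays of any culture, so no level and no fold is given. Without the detection filter the log2 differences were -0.14 for Elf5 (limma adjusted p = 0.5726) and 0.17 for Ehf (adjusted p = 0.1899). The probes show only that no signal was detectable with them. In the mouse genome Elf5 and Ehf are neighbouring coding genes on chromosome 2.

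**Figure D2:**
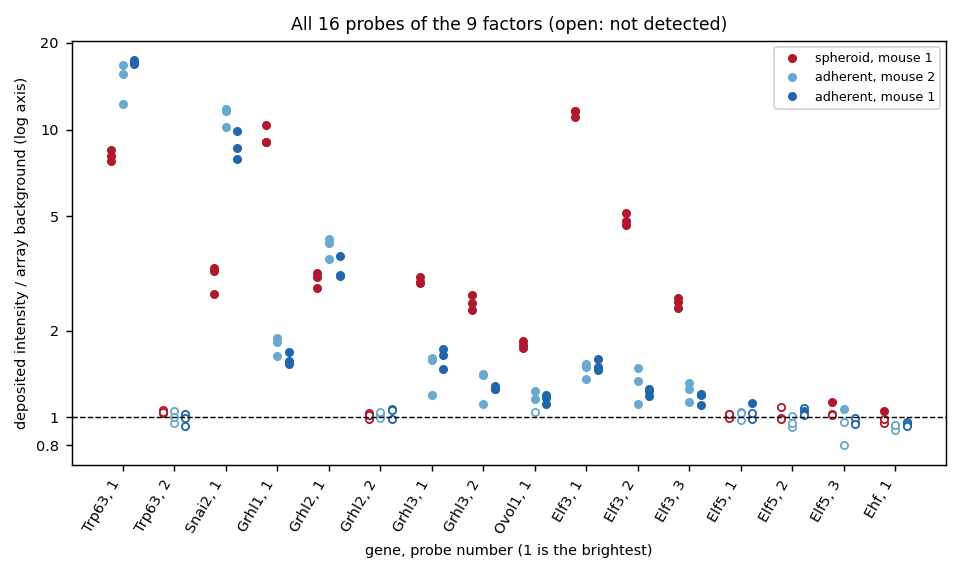
Deposited intensity of all 16 probes divided by the background of its array (log axis), by gene and probe number, for the spheroid mouse 1, adherent mouse 2 and adherent mouse 1 replicate arrays. Open points were not detected. Trp63 probe 1 reads 7.77 to 8.50 in spheroids, Elf3 probe 1 reads 11.1 to 11.6, and the Elf5 and Ehf probes lie along the dashed line at 1.

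The promoters of Grhl1, Grhl3 and Elf3 are shown because these genes rose together in spheroids and their windows could be read for motifs of the factors themselves. RefSeq windows (GRCm38.p6) of 300 bases, 250 before and 50 after the start, were matched by symbol for 4 of the 9 genes. Capitals mark the E-box CAGGTG or its reverse complement CACCTG, the motif of Snail-type repressors such as Snai2. The windows lie at chr12:24572037-24572336 on the plus strand for the first of 2 Grhl1 starts, and on the minus strand at chr4:135573583-135573882 for Grhl3 and chr1:135258423-135258722 for Elf3.
Grhl1: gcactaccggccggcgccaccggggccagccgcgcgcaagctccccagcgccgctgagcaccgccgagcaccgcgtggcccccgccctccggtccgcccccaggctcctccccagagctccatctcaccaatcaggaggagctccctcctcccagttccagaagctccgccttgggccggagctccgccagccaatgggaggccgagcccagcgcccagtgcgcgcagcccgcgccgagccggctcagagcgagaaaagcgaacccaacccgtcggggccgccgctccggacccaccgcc
Grhl3: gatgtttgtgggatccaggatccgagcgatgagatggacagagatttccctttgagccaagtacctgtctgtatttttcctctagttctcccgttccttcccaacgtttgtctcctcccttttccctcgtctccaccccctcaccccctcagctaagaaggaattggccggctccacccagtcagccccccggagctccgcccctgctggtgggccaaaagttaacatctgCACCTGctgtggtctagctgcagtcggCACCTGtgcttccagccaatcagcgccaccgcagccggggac
Elf3: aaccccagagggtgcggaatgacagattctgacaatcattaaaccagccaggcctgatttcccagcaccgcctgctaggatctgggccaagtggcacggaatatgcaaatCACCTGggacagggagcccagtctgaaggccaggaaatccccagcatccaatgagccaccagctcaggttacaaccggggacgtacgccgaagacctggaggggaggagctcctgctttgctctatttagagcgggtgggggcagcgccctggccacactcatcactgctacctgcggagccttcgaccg
The Grhl3 window holds 2 E-boxes, at -19 to -14 and at 8 to 13 from the start, and the Elf3 window holds 1, at -140 to -135. Neither Grhl1 window holds any. Both windows of Elf5, which was at background in every culture, hold the E-box too. Over all 32851 windows, 20.2% hold it on either strand. None of the 6 windows of these genes holds the grainyhead core AACCNGTT (2.09% of all windows), the Ets core CCGGAA (14.9%) or a pair of p53-family half-site cores CATG with 6 bases between them (0.712%). Motifs were searched on both strands. A match or its lack describes these letters only.

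Adherent mouse 2 against adherent mouse 1 served as a yardstick for a difference between cultures of the same form. In it 0 of the 7 tested factors were called with limma, beside 2.46% of all genes. Trp63 was at -0.41 (SE 0.10, adjusted p = 0.01382), lower in mouse 2, with no overlap between the cultures. It was at -0.18 under median scaling (limma adjusted p = 0.3239, with alternatives from 0.002789 to 0.3239). Snai2 arrays did not overlap either, at a difference of 0.20 (adjusted p = 0.2708), and 30.8% of all genes had no overlap in this comparison. Grhl3 had the largest difference of the 7, -0.59 (adjusted p = 0.1), but its second probe gave -0.09. Without adherent mouse 2 replicate 1 Grhl3 was at -0.31, and Elf3 was then at -0.49, against -0.29 with all arrays. Between spheroids and adherent mouse 2 the Trp63 difference was -0.36, and -0.97 under median scaling, so which of these differences is larger depends on the scaling. For the 5 called factors, the spheroid differences were several times those between the adherent cultures, and whether they differed from them was not tested.

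**Figure D3:**
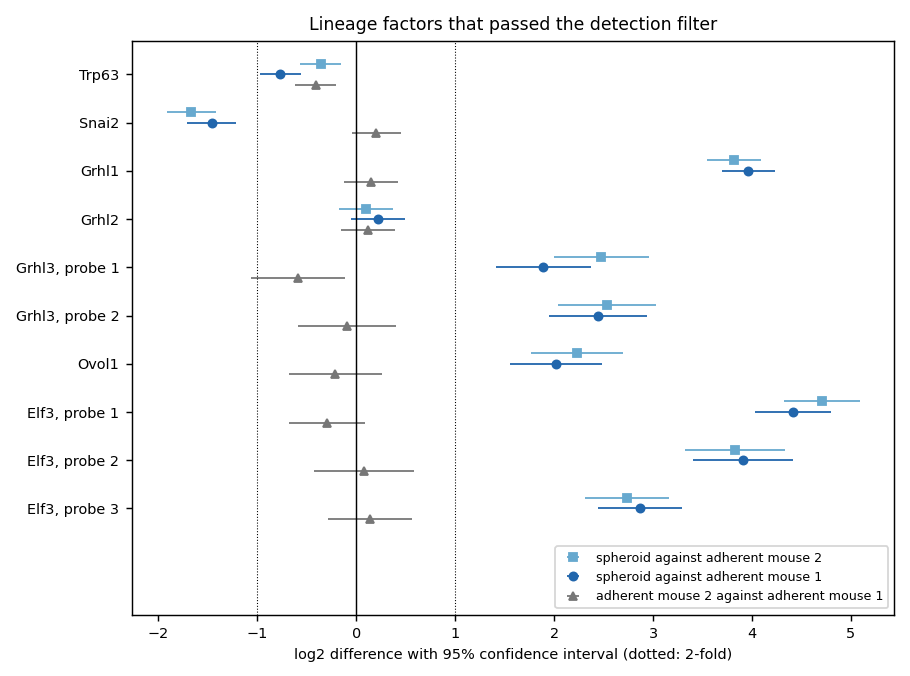
Log2 difference with 95% confidence interval of the 10 probes that passed the filter, for spheroid against adherent mouse 2, spheroid against adherent mouse 1 and adherent mouse 2 against adherent mouse 1. Dotted lines mark 2-fold. Grhl1 lies near 3.82 and 3.96 in the spheroid comparisons, Grhl2 near 0, and no factor passes 2-fold between the adherent cultures.

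The pooled arrays, which hold RNA of the same replicates and were not in the fit, gave 3.93 for Grhl1, 4.34 for Elf3, 2.33 for Grhl3 and 2.30 for Ovol1 (spheroid pool minus the mean of the adherent pools, log2). Trp63 was at -0.57, Snai2 at -1.40 and Grhl2 at 0.26. They are no further replicates.

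Of 14 family relatives 8 were tested, and 1 rose, beside 13.1% of all genes called higher. Tfcp2l1, a grainyhead-related factor of the CP2 branch, averaged 11.96 ± 0.08 in spheroids, 7.45 ± 0.09 in adherent mouse 2 and 7.27 ± 0.06 in adherent mouse 1 (log2, SD, n = 3 each). Its difference was 4.61 (SE 0.09, limma adjusted p = 1.865e-13). The other 7 tested relatives were not called: Ets factors Elf2 at -0.55 and Elf1 at -0.31 and the CP2 factor Ubp1 at -0.42 were the furthest, and 1 of 3 other Elf2 probes and the other Ubp1 probe had the opposite sign. The list's median was 0.04. Trp73, Snai1, Scrt1, Ovol3 and Spdef did not pass the filter.

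Of 12 grainyhead target genes, known from mammalian epithelia, 10 were tested, 6 rose and none fell, with a median of 1.03. Over all genes tested, 13.1% were called higher and 13.4% lower. Cldn4, a tight junction claudin, averaged 13.02 ± 0.02 in spheroids, 11.26 ± 0.08 in adherent mouse 2 and 11.03 ± 0.09 in adherent mouse 1, a difference of 1.87 (SE 0.06, limma adjusted p = 2.737e-11). Spint1, a membrane serine protease inhibitor, differed by 1.75 (SE 0.08) and the splicing regulator Esrp2 by 1.19 (SE 0.12). Desmoglein gene Dsg1b differed by 1.55 (SE 0.20) but was undetected in adherent mouse 1 and detected on 2 of 3 adherent mouse 2 arrays. Dsg1b passed the filter only through the spheroid arrays, so its place among the 6 genes that rose is not independent of the filter. The 4 that were not called were Arhgef19 at -0.94 (SE 0.15), Cdh1 at 0.10, Esrp1 at 0.32 and Ovol2 at 0.30. Against adherent mouse 2 alone 4 of the 10 were called higher, and against adherent mouse 1 alone 6, with 1 lower, Arhgef19 at -1.15.

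Of 17 genes listed as bound by p63, not all of them basal, 15 were tested, 1 rose and 4 fell, with a median of 0.03. Over all genes tested, 13.1% were called higher and 13.4% lower, 26.5% in either direction. The list was not split by whether p63 raises or lowers a gene. Fgfr2, a growth factor receptor, averaged 8.10 ± 0.14 in spheroids and 9.05 ± 0.10 in adherent mouse 2 (SD, n = 3 each). Its difference from both adherent cultures was -1.43 (SE 0.10, limma adjusted p = 2.398e-08), and it was -0.95 against adherent mouse 2 and -1.91 against adherent mouse 1. The Notch ligand Jag2 was at -1.33 and the hemidesmosome gene Dst at -1.25, and of 5 other Dst probes 2 were called lower and 3 were not called. Perp, a desmosome protein, was at 1.32 and called higher. Against adherent mouse 2 alone, where Fgfr2 and Perp (0.85) were not called, the calls were 3 of the 15, each of them lower, and against adherent mouse 1 alone 2 were called higher and 3 lower.

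Of 8 factors of the mesenchymal transition 4 were tested and 1 fell, beside 13.4% of all genes called lower. Twist2, a helix-loop-helix factor, averaged 7.48 ± 0.13 in spheroids, 8.77 ± 0.32 in adherent mouse 2 and 8.89 ± 0.08 in adherent mouse 1, a difference of -1.35 (SE 0.13, limma adjusted p = 9.188e-07). Zeb1 was at 0.53, Prrx1 at -0.39 and Tcf4 at -0.21, none of them called, and the list's median was -0.30.

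Of 24 other epithelial and prostate lineage factors 14 were tested, 3 rose and 1 fell, with a median of 0.00. Over all genes tested, 13.1% were called higher and 13.4% lower, 26.5% in either direction. Klf4, a zinc finger factor of barrier formation, averaged 10.88 ± 0.14 in spheroids, 9.39 ± 0.70 in adherent mouse 2 and 8.47 ± 0.10 in adherent mouse 1, a difference of 1.95 (SE 0.21, limma adjusted p = 2.898e-06), and its 2 other probes were called higher too. Klf5 was at 1.07 and called higher, but at 0.69 and not called against adherent mouse 2 alone. Against adherent mouse 2 alone 2 of the 14 were called higher and 1 lower, and against adherent mouse 1 alone 4 and 2. Prdm1 was undetected in both adherent cultures and was at least 2.07-fold higher in spheroids. It passed the filter only through the spheroid arrays, so its place among the 3 genes that rose is not independent of the filter. Sox2, a stem cell factor, was at -1.69 (SE 0.17) and called lower, while its other probe was at -0.25 and not called.

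**Figure D4:**
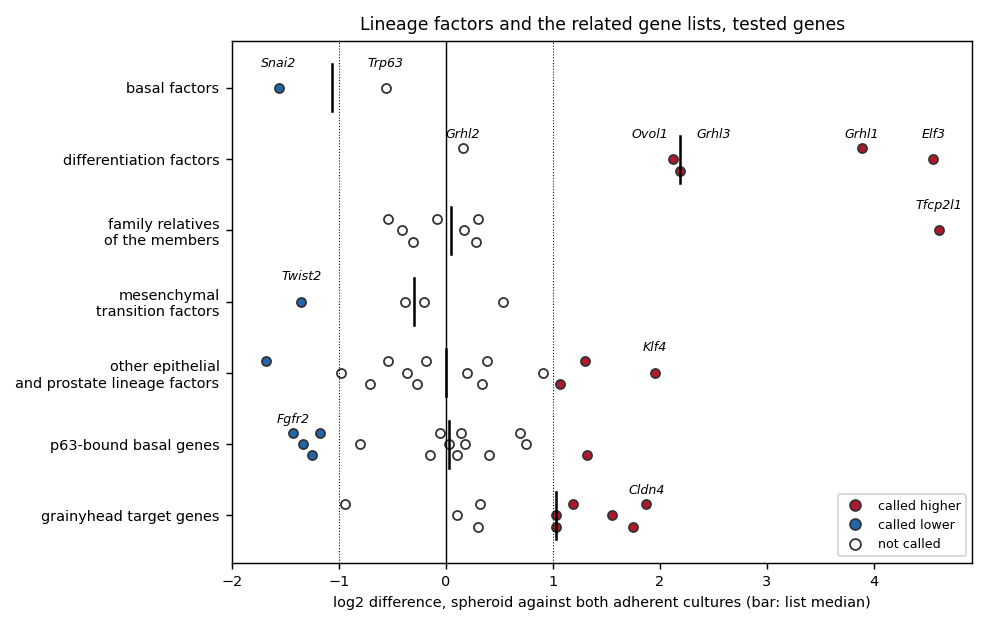
Log2 difference of each tested gene, spheroid against the average of both adherent cultures, for the basal and differentiation factors and 5 lists of related genes. Each point is a gene, filled when called, bars are list medians and dotted lines mark 2-fold. The differentiation factors have a median of 2.18 and the grainyhead target genes one of 1.03, while the family relatives lie at 0.04 with Tfcp2l1 far to the right.

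Markers of other cell states moved with the same comparison, in which 13.1% of all genes were called higher and 13.4% lower. Of 12 squamous suprabasal markers 10 were tested and 9 rose. The mean log2 signal of all 10 was 11.25 to 11.32 on the spheroid arrays, 8.51 to 8.76 in adherent mouse 2 and 7.94 to 8.10 in adherent mouse 1. The remaining tested gene, Ivl, went the other way, at -0.56 and not called, and its other probe was at -0.95. Krt1 and Tgm3 did not pass the filter. Against adherent mouse 2 alone 7 of the 10 were called higher, and between the adherent cultures 3 were called. Of 12 mesenchymal markers 5 were tested and 4 fell, namely Vim, Acta2, Sparc and Fn1. The mean of all 5 tested genes was 6.90 to 7.15 in spheroids, 10.34 to 10.87 in adherent mouse 2 and 10.54 to 10.67 in adherent mouse 1. The fibroblast markers Col1a1, Pdgfra and Pdgfrb did not pass the filter. The fifth tested gene, the collagen Col1a2, was detected on all 9 replicate arrays and was at -0.05, not called. The part of these shifts in the values of the lineage factors was not tested. Of 8 leukocyte markers 3 were tested and 1 rose, and the pan-leukocyte gene Ptprc did not pass. The 1 that rose, Cd52, was undetected in both adherent cultures. It passed the filter only through the spheroid arrays, so its call is not independent of the filter. Of 5 endothelial markers 3 were tested and none was called, of 6 neuroendocrine markers 1 was tested, Ncam1, which fell while its 2 other probes were not called, and none of 4 seminal vesicle markers passed. The lists share genes: Cldn4 is also a luminal marker, Tgm1 a squamous marker, and 6 of the 8 basal markers are among the p63-bound genes. Ovol2 is in both the family relatives and the grainyhead targets, and Snai1 in both the relatives and the mesenchymal transition factors.

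The genes with the most similar profile were found by Euclidean distance of log2 values centred per gene over the 9 replicate arrays, among all genes tested. They were Hpgd (0.28) and Cldn23 (0.33) for Grhl1, Cyp2f2 (0.52) and Prr15l (0.55) for Elf3, and Irf9 (0.45) and Mindy2 (0.45) for Ovol1. For Grhl3 they were Irf9 (0.55) and Ovol1 (0.56), itself 1 of the lineage factors. For Snai2 they were Ppa1 (0.30) and Ror2 (0.32), for Trp63 Sf3b2 (0.16) and Bcl2 (0.21), and for Grhl2 Traf6 (0.20) and Rtl1 (0.23). Genes that vary less lie closer together by this measure, so distances of different factors are not comparable.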

How the data were processed

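Gene expression was measured on 12 Illumina mouse arrays, from total RNA (miRNeasy kit) turned into biotinylated cRNA (MessageAmp kit), per the labels. The authors deposited a mean bead intensity for each of 45135 probes and array, linear and without background subtraction, and a detection p-value beside it, per the file headers. They also deposited normalized intensities, an alternative here, whose scaling is not given in the sources used here. Gene names came from the platform annotation: 34773 probes had 1 symbol, 18 had several and 10344 had none here, and probes with several named no gene.

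With limma 3.58.1 in R 4.3.3, log2 signals were made by neqc, which takes the background of an array from its detection p-values, with an offset of 16 and quantile normalization of all 12 arrays. The offset understates changes of dim genes. Detection (p under 0.05) was required on every replicate array of 1 culture or more, which 18950 probes met, and the brightest passing probe stood for a gene (10112 genes). The model had 1 mean for each culture over 9 replicate arrays (lmFit, eBayes with trend), with Benjamini-Hochberg adjustment over all genes. A call needed a 2-fold difference and an adjusted p under 0.05. "At least" folds set the undetected side to its own value or the lowest detected signal, whichever was higher. Means of marker lists are over tested genes. The fit was tested on simulated data. The number of arrays limits the precision.

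The 9 factors and the lists of related genes and markers were chosen with earlier results of these data known. All members were named, from each related list up to 4 genes with the largest absolute difference, and for each tested member the 2 nearest genes. The 4 grainyhead targets that were not called were named after their values were seen. Marker genes named singly come from the marker lists. Alternatives were another scaling, background correction, offset, filter, call rule, source of values, probe choice, a replicate block and leaving out each array. Another filter, probe choice or call rule, or the replicate block, left the differences of tested members unchanged. Dropping the fold threshold could only add calls. Leaving out an array did not move the differences of a comparison without its culture, only their p-values.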

Additional observations from a re-analysis of the deposited data

How the results depend on the processing

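The difference of each of the 7 tested members was recomputed under 18 alternatives (19 for spheroid against adherent mouse 1). For Ovol1 there were 17 (18 for spheroid against adherent mouse 1). Elf5 and Ehf were fitted only without the detection filter. Elf3, Grhl1, Grhl3 and Snai2 kept their call throughout the spheroid comparisons, though not every alternative could change it. Against both adherent cultures they ranged from 3.30 to 4.70 for Elf3, 2.87 to 4.01 for Grhl1, 1.26 to 2.26 for Grhl3 and -2.06 to -1.31 for Snai2. Ovol1 fell under 2-fold without background correction (0.83 against adherent mouse 2, 0.79 against adherent mouse 1) and in the authors' normalized values (0.98 and 0.93), and could not be tested where detection on all 9 arrays was required. Trp63 was called lower under median scaling against both cultures and against adherent mouse 1 (-1.15), not against adherent mouse 2 (-0.97). Against adherent mouse 2 it was at -0.20 under cyclic loess (limma adjusted p = 0.1136, range over alternatives 1.251e-05 to 0.1136). Grhl2 reversed under median scaling, to -0.34 against both adherent cultures, -0.53 against adherent mouse 2 and -0.16 against adherent mouse 1, where the medians of all genes were -0.35, -0.44 and -0.27. Between the adherent cultures the Ovol1 difference was -0.21 and, leaving out each array in turn, ranged from -0.39 (without adherent mouse 2 replicate a) to 0.019 (without adherent mouse 2 replicate 1), which reversed it. Without adherent mouse 2 replicate 1, 376 genes in place of 249 were called there. The Trp63 difference there had a limma adjusted p of 0.05793 without array a, 0.05647 and 0.06139 without adherent mouse 1 replicates 2 and 3, and 0.3239 under median scaling (range over alternatives 0.002789 to 0.3239). With no fold threshold Trp63 was called lower in all 3 spheroid comparisons, and it was the 1 member called between the adherent cultures. By that rule many of the 10112 genes were called lower in spheroids: 3478 against both cultures, 3231 against adherent mouse 2 and 3260 against adherent mouse 1. For spheroid against both cultures, all genes called higher and lower were 1327 and 1357, against 883 and 2326 under median scaling, 1465 and 1058 under cyclic loess, 690 and 592 without background correction, 782 and 693 in the authors' values and 6439 in all with no fold threshold. Between the adherent cultures 50, 102, 63 and 1350 genes were called without background correction, with an offset of 50, in the authors' values and with no fold threshold. The cause of these changes was not tested. With the replicate number as a replicate block, on the 6 arrays of mouse 1, 5 members were called, as without it. Same-numbered arrays did not deviate together (correlations 0.03, -0.04 and 0.07), so the numbers are not taken as pairs. Signal over background limits Ovol1, Elf5 and Ehf. It also limits the fold sizes of Grhl1, Grhl3 and Elf3, whose adherent arrays were near the background. Without background correction their differences from both adherent cultures were 2.87, 1.26 and 3.30.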
